A study of Mus musculus with 20 samples.

Results

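Hearts of mice numbered 3 or 4 within their treatment group were compared with hearts of mice numbered 1 or 2, a split that crosses the treatments of the study. Of the 20 arrays, the 10 whose title ends in replicate 3 or 4 were set against the 10 whose title ends in replicate 1 or 2, with 2 mice of each treatment group on either side. The mice were C57BL/6J males in 5 groups of 4, and the left ventricle of each was hybridised to its own Affymetrix mouse genome array. All mice came at an age of 6 weeks and, after 2 weeks of acclimation, received standard chow for 4 weeks under a light and dark cycle of equal lengths. Control mice ate the chow alone. The other groups ate it with a statin, an inhibitor of cholesterol synthesis, at a daily dose in mg/kg of 4.5 for pitavastatin, 21.0 for pravastatin, 10.9 for rosuvastatin and 11.4 for atorvastatin. The labels do not say what the replicate number stands for, nor at what time of day each heart was taken. A difference between these sets of mice is therefore variation that no treatment label explains. Each mouse had its own array, so differences between animals and between arrays cannot be told apart, and the cause was not tested.

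Several of the genes described here belong to a few well-studied systems. Cells take up iron through the transferrin receptor Tfrc, whose messenger is stabilised by iron regulatory proteins when iron in the cell is low, and release it through ferroportin (Slc40a1). Heme synthesis, a major use of iron, begins with the enzyme Alas1. The circadian clock is built on the pair Arntl (BMAL1) with Clock or Npas2, which drives the period and cryptochrome genes that repress it and output genes such as Dbp, so many heart messengers swing over the day. In fasting, low insulin lets FOXO forkhead factors turn on genes of protein breakdown such as Fbxo32, while PPAR alpha turns on genes of fat use. Microtubules, built from pairs of alpha and beta tubulin, stiffen the cardiomyocyte and carry its cargo.

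The promoters of the genes with the highest rank in this comparison are shown for orientation: Tfrc, the beta tubulin Tubb4b and the alpha tubulin Tuba8. Each is the 250 bases before an annotated start (RefSeq, build GRCm38.p6), written 5′ to 3′ on the strand of the gene, at chr16:32608646-32608895 on the + strand for Tfrc, chr2:25224703-25224952 on the - strand for Tubb4b and chr6:121210484-121210733 on the + strand for Tuba8. Capitals mark the E-box letters that clock factors can bind.
Tfrc: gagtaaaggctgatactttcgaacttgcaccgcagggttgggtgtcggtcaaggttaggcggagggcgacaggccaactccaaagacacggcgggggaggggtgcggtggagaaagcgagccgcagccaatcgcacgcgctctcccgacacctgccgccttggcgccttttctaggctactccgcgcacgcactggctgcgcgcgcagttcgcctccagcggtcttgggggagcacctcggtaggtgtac
Tubb4b: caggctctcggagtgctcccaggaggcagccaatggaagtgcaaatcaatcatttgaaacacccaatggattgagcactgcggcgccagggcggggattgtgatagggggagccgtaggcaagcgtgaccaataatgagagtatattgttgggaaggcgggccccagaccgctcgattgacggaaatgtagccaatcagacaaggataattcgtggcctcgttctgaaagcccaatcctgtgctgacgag
Tuba8: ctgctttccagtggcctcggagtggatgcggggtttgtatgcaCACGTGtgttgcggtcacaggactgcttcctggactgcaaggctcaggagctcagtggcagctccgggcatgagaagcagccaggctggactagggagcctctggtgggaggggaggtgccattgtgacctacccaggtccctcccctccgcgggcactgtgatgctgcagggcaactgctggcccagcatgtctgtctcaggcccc
Of these windows only that of Tuba8 held the E-box CACGTG, and none held the forkhead letters GTAAACA or the D-box TTANGTAA, both strands searched. Over 75 named genes with a window, the E-box stood in 7 (9.33%, beside 6.86% of 27025 genes in the table), the forkhead letters in 2 (2.67%, beside 3.54%) and the D-box in 2 (2.67%, beside 2.44%). A match is a description of the letters and no site of binding.

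The trimmed mean signal was 500 on all arrays, while the median signal ran from 63 to 144 in mice 1 and 2 and from 41.7 to 119 in mice 3 and 4. The lowest was rosuvastatin 3 and the highest atorvastatin 2, so 1 array on each side stood apart. The mean log2 median signal differed by -0.027 between the sides (p = 0.882, two-sided exact permutation within groups). The 18S ribosomal RNA signal differed by 0.15 (exact permutation p = 0.162), and the 3′ to 5′ ratios of Gapdh and Actb, which rise as RNA breaks down, by -0.021 (p = 0.619) and 0.091 (p = 0.445) on the log2 scale, also by exact permutation. After adjustment over these 4 measures the smallest p was 0.649. Where leaving out both rosuvastatin 3 and atorvastatin 2 changed the call of a named gene or turned the balance of a list, the value without them is given beside it.

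**Figure D1:**
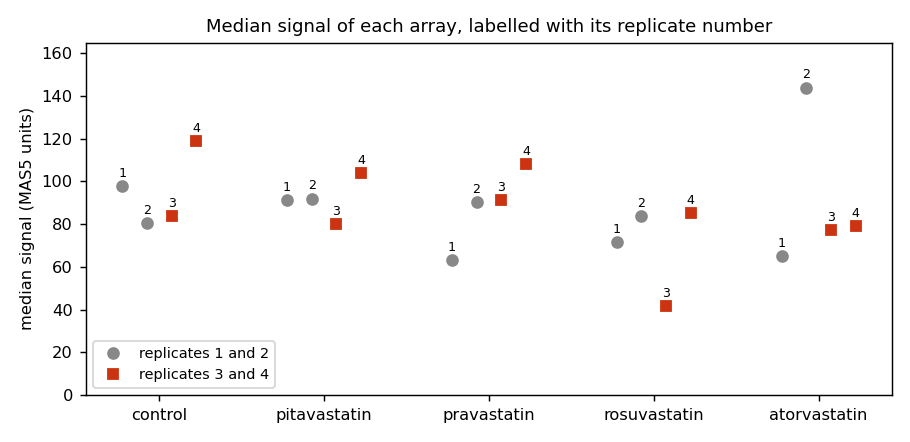
Median signal of each array (vertical axis, MAS5 units from 0) by treatment group, each point labelled with its replicate number; circles are mice 1 and 2 and squares mice 3 and 4. Rosuvastatin 3 lies lowest at 41.7 and atorvastatin 2 highest at 144, 1 on each side of the comparison.

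Few probe sets parted the mice by replicate number, among them those of Tfrc, Alas1 and 3 tubulin genes. Of 22518 probe sets tested, 14 passed at an adjusted p under 0.05 (limma, Benjamini-Hochberg over all tested), which is 0.0622% of them. In mice 3 and 4, 11 were higher (0.0488%) and 3 lower (0.0133%), for 12 genes in all. The higher genes were Tfrc, Tubb4b, Tuba8, Tuba4a, Mtfp1, Tmprss13, Alas1, Lrrc3b and Cmss1, and the lower genes Ccn2, Lrrc2 and Nampt. All 14 differences had the same sign in each of the 5 treatment groups, though these same values made the calls. None parted the 10 mice on one side from the 10 on the other without overlap, and over all 22518 probe sets that count was also 0. At an unadjusted p under 0.05, 923 probe sets were higher (4.1%) and 1031 lower (4.58%). The median difference of all probe sets was -0.009 on the log2 scale, and the median 95% interval reached 0.22 to either side. Both the number of arrays and the spread between them set the width of this interval. Without rosuvastatin 3 and atorvastatin 2, the probe sets at an unadjusted p under 0.05 were 4070 in place of 1954.

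These calls treat the mice as independent. The comparison sets 2 replicate numbers against 2, and with the number as a random block 0 probe sets passed, Tfrc, the tubulins and Alas1 included (smallest adjusted p = 0.143, for Tfrc, limma; 943 at an unadjusted p under 0.05).

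The count of calls rested on single arrays and on scaling. It was 14 without pitavastatin 2, 11 without rosuvastatin 3, 65 without atorvastatin 2 and 9 without pitavastatin 4. It was 7 without control 1 or atorvastatin 3, 6 without control 2, 5 without pitavastatin 1 or rosuvastatin 4, and 4 without pravastatin 2 or rosuvastatin 1. It was 3 without pitavastatin 3, rosuvastatin 2 or atorvastatin 1, 2 without control 3, control 4, pravastatin 1, pravastatin 3 or pravastatin 4, and 1 without atorvastatin 4. Without both rosuvastatin 3 and atorvastatin 2 it was 172, with 45 higher and 127 lower, and all 14 were among them. The share of calls that were higher, 78.6% here, was 48.7% after quantile normalization (38 higher and 40 lower) and 100% after centring each array on its median (2 higher and 0 lower). The Tfrc probe set with the smallest p was called without each of the 20 arrays in turn and Tubb4b without 19 of them, not without atorvastatin 4 (adjusted p = 0.0508, limma).

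The transferrin receptor Tfrc gave the largest difference. Its signal on its brightest probe set ran from 2070 to 9420 with a median of 3530 in mice 1 and 2, and from 3760 to 16700 with a median of 13000 in mice 3 and 4. On the log2 scale the mean was 11.81 ± 0.653 (SD, n = 10) in mice 1 and 2 and 13.35 ± 0.737 (SD, n = 10) in mice 3 and 4. The highest of mice 1 and 2 was pitavastatin 2, and 7 of the 10 mice numbered 3 or 4 lay above it. The 3 that did not were rosuvastatin 3 and both atorvastatin mice. Tfrc rose 2.91-fold, by 1.54 (SE 0.198, 95% interval 1.12 to 1.96, adjusted p = 0.00815, limma). The difference was 2.39 in controls and 2.11 with pravastatin, beside 1.29 with rosuvastatin, 1.16 with atorvastatin and 0.75 with pitavastatin, on the log2 scale with 2 mice against 2 in each group. Leaving out rosuvastatin 3 and atorvastatin 2 gave 1.66 (adjusted p = 0.00109, limma). Without all controls it was 1.33 (adjusted p = 0.0908) and without all pravastatin mice 1.40 (adjusted p = 0.114, both limma), so the call rested on those groups, and with the replicate number as a random block its adjusted p was 0.143.

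The other Tfrc probe sets lay on the same side. A dimmer one rose by 0.80 (SE 0.139, adjusted p = 0.0493, limma), with a median signal of 419 in mice 1 and 2 and 835 in mice 3 and 4. The dimmest had a difference of 0.58 (SE 0.244, adjusted p = 0.504, limma) and was not called. Immature red cells also hold much Tfrc. Of 9 erythroid marker genes only Alas2 had a tested probe set assigned to it alone, with a difference of -0.16 (adjusted p = 0.946, limma). Of the globin probe sets outside that marker list, chosen after their values were seen, Hba-a2 differed by 0.09 and Hbb-b2 by -0.19. In samples of whole tissue, fewer cells of a type and less RNA per cell cannot be told apart.

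Other genes of iron handling were not called. Of 8 tested genes of iron uptake, Tfrc was the 1 called, 5 were higher and 3 lower in mice 3 and 4, and the median difference was 0.02 on the log2 scale, beside -0.005 over all 11201 genes tested, of which 48.4% were higher. Steap3, the ferrireductase that follows Tfrc in the endosome, differed by 0.33 (adjusted p = 0.387, limma). Among 6 tested genes of iron storage and export, Slc40a1, the one known cellular iron exporter, stood at a median log2 level of 10.99 in mice 1 and 2 and 10.44 in mice 3 and 4. Its difference was -0.55 (SE 0.105, adjusted p = 0.0723, limma), from -1.05 in controls to -0.08 with pitavastatin. The ranges overlapped, from 10.3 to 11.62 and from 10.1 to 11.12, with pitavastatin 2 lowest among mice 1 and 2 and atorvastatin 3 highest among mice 3 and 4. Without rosuvastatin 3 and atorvastatin 2, Slc40a1 was called at -0.61 (adjusted p = 0.011, limma). The ferritin heavy chain Fth1 differed by 0.031 and ceruloplasmin (Cp) by 0.16, neither called. The 6 tested genes of this list had a median of 0.02, with 4 higher and 2 lower (3 and 3 without rosuvastatin 3 and atorvastatin 2).

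No gene of iron sensing was called. Fbxl5, which marks iron regulatory protein 2 for breakdown when iron is plentiful, lay at a median log2 level of 11.64 in mice 1 and 2 and 11.37 in mice 3 and 4. Its difference was -0.26 (SE 0.055, adjusted p = 0.107, limma), and 8 of 10 mice numbered 3 or 4 lay below all mice numbered 1 or 2. It was called at -0.27 without rosuvastatin 3 and atorvastatin 2 (adjusted p = 0.0314, limma). Hjv, the hemojuvelin coreceptor, differed by 0.24 (adjusted p = 0.212, limma). The regulatory proteins themselves, Aco1 and Ireb2, differed by -0.11 and -0.025, neither called. Of 12 tested genes of iron sensing and mitochondrial iron, 4 were higher and 8 lower, with a median of -0.05 and 0 called.

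Alas1, the first and rate-limiting enzyme of heme synthesis outside red cells, was higher in mice 3 and 4. On its called probe set the signal ran from 1150 to 2690 with a median of 1670 in mice 1 and 2, and from 1480 to 3450 with a median of 2550 in mice 3 and 4. Among mice 3 and 4 the atorvastatin mice were lowest, and 3 mice lay above the whole range of mice 1 and 2. Alas1 rose 1.51-fold, by 0.60 (SE 0.107, adjusted p = 0.0493, limma), with 1.05 in controls and 0.33 to 0.77 in the statin groups. Its brighter probe set differed by 0.65 (SE 0.131, adjusted p = 0.088, limma) and was not called, but was without rosuvastatin 3 and atorvastatin 2 (0.63, adjusted p = 0.0333, limma). Of 16 tested genes of heme synthesis and breakdown 10 were higher and 6 lower, with a median of 0.01. This balance turned when either of these arrays was left out. Without atorvastatin 2 alone 6 were higher and 10 lower (median -0.03), and without rosuvastatin 3 alone 7 were higher and 9 lower (median -0.02). Without both, 6 were higher and 10 lower (median -0.04). None was called by its brightest probe set, and Alad, the next enzyme after Alas1, differed by 0.22. Bach1, a heme-sensing repressor, differed by -0.29 and its target Hmox1, which breaks heme down, by -0.31, neither called.

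**Figure D2:**
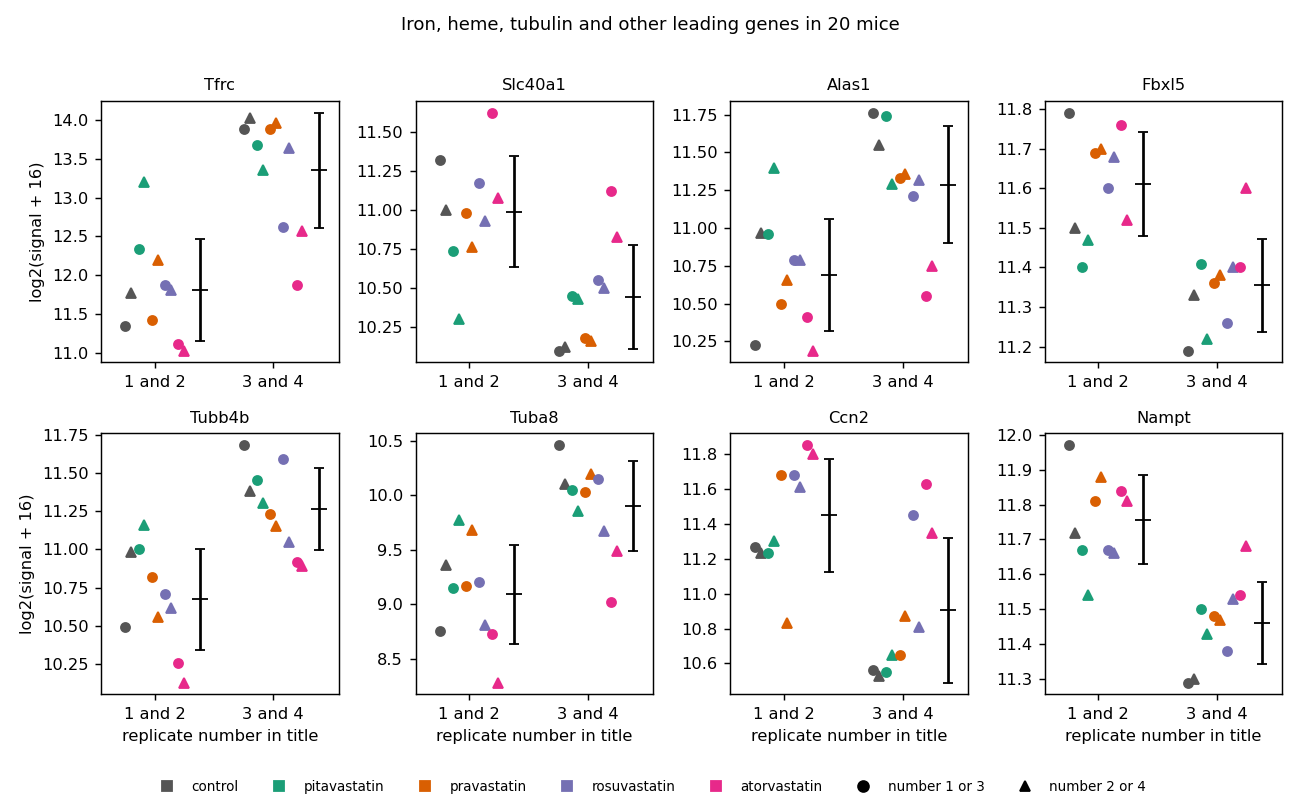
Log2(signal + 16) of 8 genes in each of the 20 mice, by replicate number (1 and 2 against 3 and 4), with colours for treatment groups, circles for numbers 1 and 3 and triangles for numbers 2 and 4; bars are the mean and SD of 10 mice. Alas1, Tuba8 and Nampt are shown by their called probe set; Slc40a1 and Fbxl5 did not pass the test, and in every panel the ranges overlap.

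Alpha and beta tubulins, 3 genes by their called probe sets, were higher in mice 3 and 4. Tubb4b ran from a signal of 1100 to 2270 with a median of 1610 in mice 1 and 2, and from 1890 to 3260 with a median of 2440 in mice 3 and 4. It rose 1.51-fold, by 0.59 (SE 0.083, 95% interval 0.42 to 0.77, adjusted p = 0.0135, limma), with 6 of 10 mice above the range of mice 1 and 2. Differences by group ran from 0.30 with pitavastatin to 0.80 in controls. Tuba8, an alpha tubulin rich in heart and skeletal muscle, rose on both of its called probe sets. On the dimmer one the median signal was 556 in mice 1 and 2 and 1040 in mice 3 and 4, a rise of 0.81 (SE 0.126, adjusted p = 0.0254, limma), and on the brighter one the rise was 0.67 (SE 0.118, adjusted p = 0.0493, limma). Of mice 3 and 4, 7 lay above the range of mice 1 and 2 on either probe set, and atorvastatin 3 was lowest on the first.

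Tuba4a, a muscle alpha tubulin, had a median signal of 8360 in mice 1 and 2 and 14100 in mice 3 and 4 on its called probe set, a rise of 0.62 (SE 0.096, adjusted p = 0.0254, limma). Its other probe sets were not called: the brightest differed by 0.29 (adjusted p = 0.591) and the dimmest by 0.24 (adjusted p = 0.601, both limma). The tubulin family as a list was added after these values were seen, so its count describes these arrays and supports nothing. All 11 tested tubulins were higher, 2 were called by their brightest probe set (Tubb4b and Tuba8) and 6 had an unadjusted p under 0.05, with a median of 0.24. Tubb6 differed by 0.43 (adjusted p = 0.149), Tubg1 of the microtubule-organising centre by 0.30 (adjusted p = 0.355) and Tubb5 by 0.059 (adjusted p = 0.888, all limma). Tubulin genes are close in sequence, so some probe sets may read more than 1 of them. Without rosuvastatin 3 and atorvastatin 2, 9 of the 11 were higher.

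The other called genes act in separate places. Tmprss13, a membrane serine protease, was dim, at a median signal of 101 in mice 1 and 2 and 214 in mice 3 and 4, and rose by 1.25 (SE 0.209, adjusted p = 0.0426, limma). Its difference ran from 0.83 with rosuvastatin to 1.51 with pravastatin, and 8 of 10 mice lay above the range of mice 1 and 2. Mtfp1, which promotes mitochondrial fission, rose by 0.32 (SE 0.052, adjusted p = 0.0366, limma), and 9 of 10 mice lay above the range of mice 1 and 2, whose median signal was 5430 beside 6600. Lrrc3b rose by 0.35 (adjusted p = 0.0493) and Cmss1 by 0.32 (adjusted p = 0.0497, both limma). Cmss1 had another pair of tested probe sets of the opposite sign, at -0.23 and -0.31, neither called.

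Ccn2, the matricellular growth factor CTGF that responds to stretch and to TGF beta, was lower. Its signal ran from 1800 to 3670 with a median of 2800 in mice 1 and 2, and from 1470 to 3160 with a median of 1690 in mice 3 and 4. Both atorvastatin mice and rosuvastatin 3 lay highest among mice 3 and 4, and pravastatin 2 lay lowest among mice 1 and 2. Ccn2 fell by 0.54 (SE 0.095, adjusted p = 0.0493, limma), a 1.46-fold difference, with group values from -0.70 in controls to -0.34 with atorvastatin. Lrrc2, a leucine-rich repeat protein of heart and skeletal muscle, fell by 0.31 (SE 0.056, adjusted p = 0.0493, limma), and 9 of 10 mice lay below all mice numbered 1 or 2. Its other probe set differed by -0.29 (adjusted p = 0.24, limma).

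Nampt, the rate-limiting enzyme of NAD salvage and a clock output gene, fell by 0.30 on its called probe set (SE 0.053, adjusted p = 0.0495, limma). Its signal ran from 2960 to 4000 in mice 1 and 2 and from 2490 to 3260 in mice 3 and 4, with 9 of 10 mice below the range of mice 1 and 2. Its brightest probe set differed by -0.40 (adjusted p = 0.129) and its dimmest by -0.26 (adjusted p = 0.519, both limma), neither called. The brightest was called without rosuvastatin 3 and atorvastatin 2, at -0.47 (adjusted p = 0.0155, limma).

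**Figure D3:**
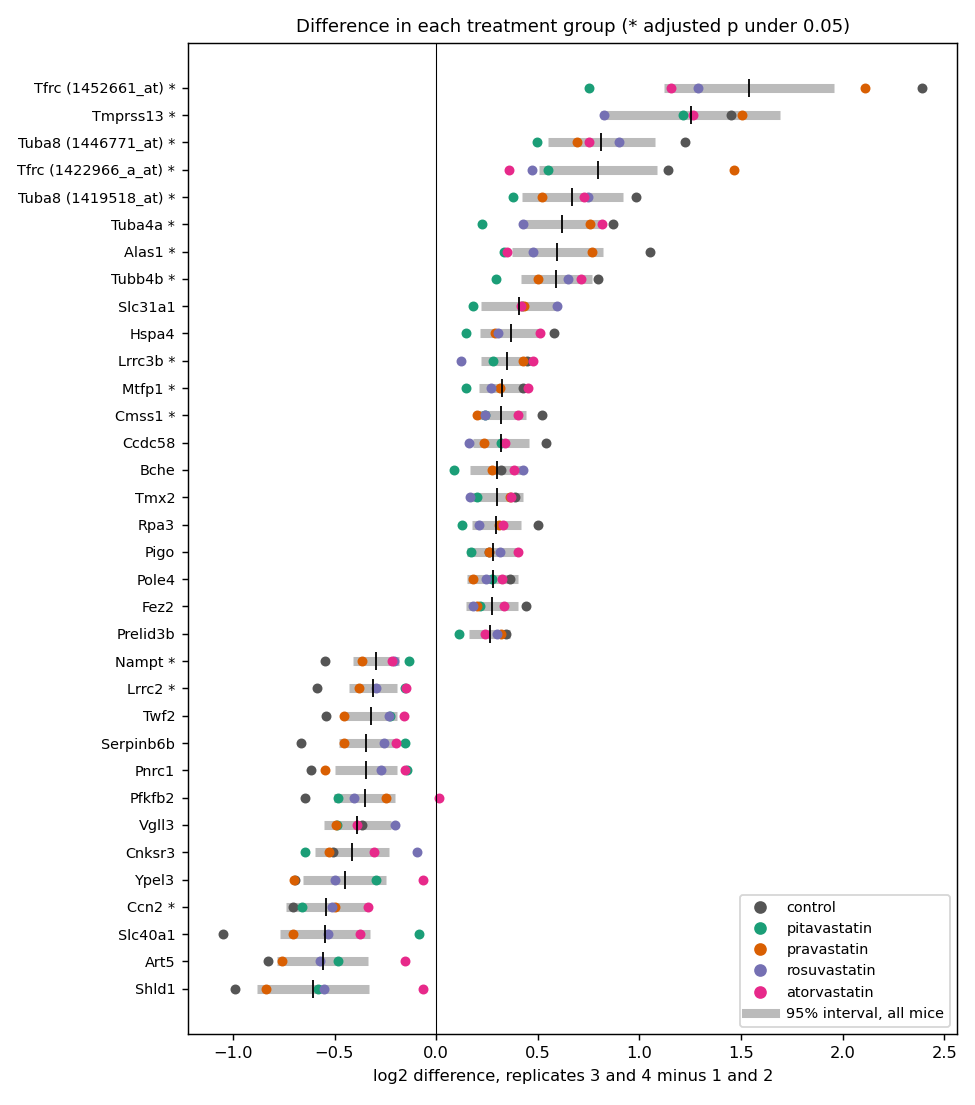
Log2 difference, replicates 3 and 4 minus 1 and 2, of the called probe sets (starred) and of the 20 named probe sets that did not pass; points are the 5 treatment groups (2 mice against 2), black ticks the estimate over all mice and grey bars its 95% interval. All points of the starred rows lie on one side of 0, and Pfkfb2 has 1 group, atorvastatin, on the other side.

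Below the threshold, 10 probe sets with a higher and 10 with a lower value stood out among the 50 with the smallest p, and none of these 20 passed. The copper importer Slc31a1 differed by 0.41 (adjusted p = 0.11, limma), and the chaperone Hspa4 by 0.37 (adjusted p = 0.0812, limma) on a probe set whose sisters lay at 0.05, -0.009 and -0.035. The other 8 higher ones, Ccdc58, Bche, Tmx2, Rpa3, Pigo, Pole4, Fez2 and Prelid3b, lay between 0.26 and 0.32. Another Bche probe set lay at -0.055. The lower ones were Shld1 of the shieldin complex of DNA repair (-0.61, adjusted p = 0.11), the ADP-ribosyltransferase Art5 (-0.56, adjusted p = 0.069), Slc40a1, Ypel3 (-0.45), Cnksr3 (-0.42), Vgll3 (-0.39), Pfkfb2 (-0.35), Pnrc1 (-0.35), Serpinb6b (-0.35) and Twf2 (-0.32), all by limma. All of these 20 were called without rosuvastatin 3 and atorvastatin 2 except Slc31a1, Ccdc58, Bche, Pigo, Pole4, Fez2 and Vgll3.

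Clock genes lay apart by small amounts and none was called by its brightest probe set. All 5 tested core activators were lower in mice 3 and 4, with a median of -0.16 and 3 at an unadjusted p under 0.05, which 5.17% of all genes reached in that direction. With each array centred on its median all 5 were again lower (median -0.14), but 0 had an unadjusted p under 0.05. That setting left 182 of all 22518 probe sets at such a p, in place of 1954. After quantile normalization all 5 were lower (median -0.15), and 2 had an unadjusted p under 0.05. Arntl ran from 8.67 to 9.37 with a median of 9.15 (log2 level) in mice 1 and 2, and from 8.35 to 9.33 with a median of 8.79 in mice 3 and 4. It differed by -0.34 (SE 0.117, adjusted p = 0.363, limma), with the same sign in all 5 groups, and 4 of 10 mice lay below the range of mice 1 and 2. Its partner Npas2 differed by -0.31 (adjusted p = 0.408), Rora, which drives Arntl, by -0.15 (adjusted p = 0.53) and Clock by -0.13 (adjusted p = 0.703, all limma). Without rosuvastatin 3 and atorvastatin 2, Arntl was called at -0.45 (adjusted p = 0.0408, limma), and 4 of the 5 were lower.

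Dbp, an output of the activator pair that swings widely over the day, lay on the other side. Its log2 level ran from 10.15 to 12.3 with a median of 10.92 in mice 1 and 2, and from 10.53 to 12.07 with a median of 11.47 in mice 3 and 4. Rosuvastatin 2 had the highest value of all, and rosuvastatin was the 1 group with a negative difference (-0.37). Over all mice Dbp differed by 0.45 (SE 0.193, adjusted p = 0.504, limma). Repressors lay on both sides of 0. Per1 differed by -0.15 (adjusted p = 0.969) and Nr1d1 by 0.11 (adjusted p = 0.886, both limma). Per3 differed by 0.20 (adjusted p = 0.589) and Cry2 by -0.11 (adjusted p = 0.739, both limma). Of 10 tested repressors 5 were higher and 5 lower (median -0.016), or 4 and 6 without rosuvastatin 3 and atorvastatin 2. Per2 had no tested probe set. Of 11 clock output genes 6 were higher and 5 lower (median 0.05), with Nampt and the cold-inducible RNA-binding Cirbp (-0.36, adjusted p = 0.291, limma) lowest.

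**Figure D4:**
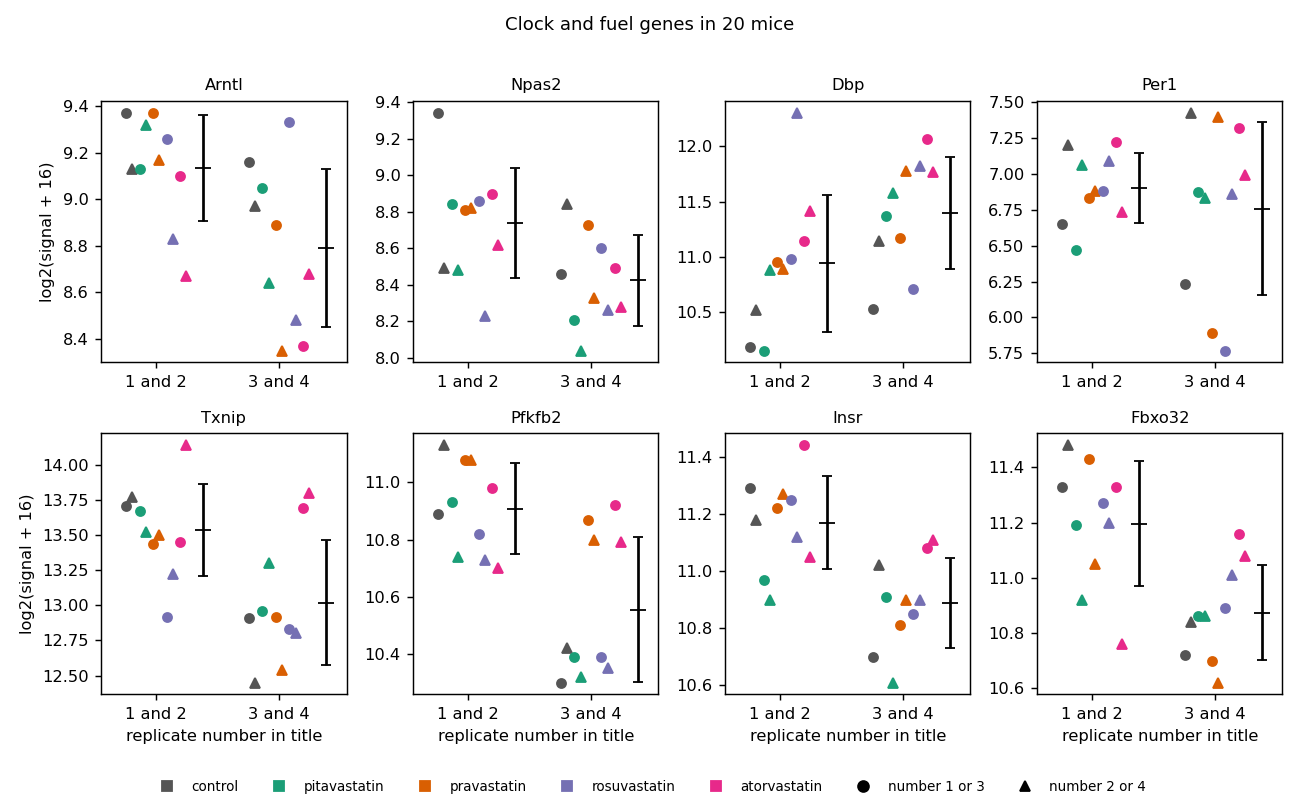
Log2(signal + 16) of 4 clock genes (top) and 4 fuel genes (bottom) in each of the 20 mice, by replicate number, with colours for treatment groups, circles for numbers 1 and 3 and triangles for numbers 2 and 4; bars are the mean and SD of 10 mice. No gene shown passed the test over all mice, and the ranges overlap in every panel; Dbp spans 10.15 to 12.3 within mice 1 and 2 alone.

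Genes of insulin signalling and of protein breakdown were mostly lower in mice 3 and 4 without passing the test. Of 17 tested genes of muscle atrophy and autophagy 16 were lower and 1 higher, with a median of -0.11 and 7 at an unadjusted p under 0.05 (41.2%, beside 5.17% of all genes), and 0 were called. With each array centred on its median 15 were lower (median -0.09), and 0 had an unadjusted p under 0.05, as did only 182 of all 22518 probe sets. After quantile normalization all 17 were lower (median -0.10), and 8 had an unadjusted p under 0.05. Fbxo32, the ubiquitin ligase atrogin-1, ran from a signal of 1720 to 2850 with a median of 2400 in mice 1 and 2, and from 1560 to 2280 with a median of 1840 in mice 3 and 4. Its difference was -0.32 (SE 0.09, adjusted p = 0.22, limma), with atorvastatin at 0.08 and controls at -0.63. Trim63, the ligase MuRF1, differed by -0.29 and the autophagy receptor Sqstm1 by -0.37 (adjusted p = 0.25, limma). Without rosuvastatin 3 and atorvastatin 2, Fbxo32 and Sqstm1 were called lower, and the list held 15 lower genes with a median of -0.17.

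Of 24 tested genes of insulin and mTOR signalling 16 were lower, with a median of -0.11 and 0 called. The insulin receptor Insr had a median signal of 2340 in mice 1 and 2 and 1900 in mice 3 and 4, and differed by -0.28 (SE 0.06, adjusted p = 0.11, limma), with the same sign in each group. Sesn1, a stress-induced brake on mTORC1, differed by -0.33 (adjusted p = 0.129, limma) and Igf1r by -0.26. Insr and Sesn1 were each called without rosuvastatin 3 and atorvastatin 2, at -0.31 (adjusted p = 0.0155) and -0.37 (adjusted p = 0.0295, both limma), and 18 of the 24 were then lower.

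Among 24 genes of glucose uptake and pyruvate control 11 were higher and 13 lower, with a median of -0.03 and 0 called (12 and 12 without rosuvastatin 3 and atorvastatin 2). Txnip, which curbs glucose uptake, had the lowest value. Its signal ran from 7750 to 18000 with a median of 11700 in mice 1 and 2, and from 5560 to 14200 with a median of 7710 in mice 3 and 4, where both atorvastatin mice were highest. It differed by -0.52 (SE 0.119, adjusted p = 0.129, limma), from -1.06 in controls to -0.05 with atorvastatin. Pfkfb2, a heart enzyme that makes the activator of phosphofructokinase, differed by -0.35 (SE 0.071, adjusted p = 0.0871, limma), and 6 of 10 mice lay below the range of mice 1 and 2. It was called at -0.40 without rosuvastatin 3 and atorvastatin 2 (adjusted p = 0.00919, limma). Pdk4, the fasting kinase that blocks pyruvate use, differed by -0.14 (adjusted p = 0.898, limma). All 11 tested glycolytic enzymes were higher, with a median of 0.12 and 0 called. Pgam1 differed by 0.21 (adjusted p = 0.323) and Pgam2 by 0.16 (adjusted p = 0.604, both limma).

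Of 25 tested PPAR alpha and fasting genes 10 were higher and 15 lower (median -0.06, 0 called). Angptl4, an inhibitor of lipoprotein lipase, had the lowest difference of any tested gene's brightest probe set, -0.70 (SE 0.23, adjusted p = 0.326, limma), with signals from 87.4 to 759 and from 70.5 to 365. The uncoupling protein Ucp3 differed by -0.47, the acyl-CoA thioesterase Acot1 by -0.39 (adjusted p = 0.233) and the coactivator Ppargc1a by -0.22 (adjusted p = 0.321, both limma). Enzymes of fatty acid oxidation were higher in 14 of 19 (median 0.06), although the peroxisomal enzyme Ehhadh differed by -0.32 (adjusted p = 0.208) and Acaa1a by -0.16 (adjusted p = 0.58, both limma). Genes of fatty acid synthesis were higher in 10 of 14 (median 0.07), with Srebf1 at 0.12 and Mlxip at 0.13. None of these was called.

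**Figure D5:**
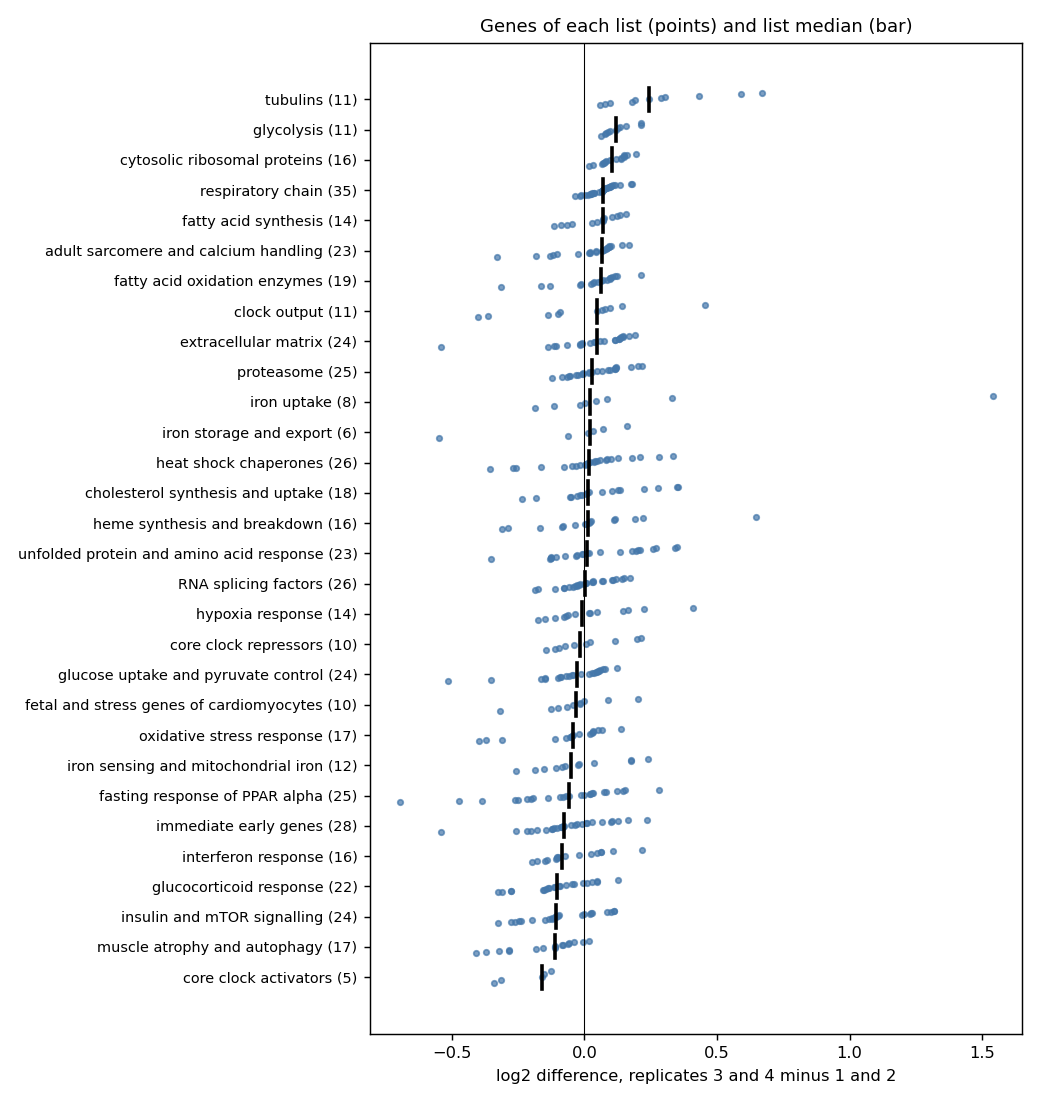
Log2 difference, replicates 3 and 4 minus 1 and 2, of the tested genes of each list (points, 1 per gene by its brightest probe set) and the list median (bars), with the number of genes in brackets; lists are ordered by median. Tubulins, a list added after values were seen, lie at the top (0.24) and core clock activators at the bottom (-0.16), and Tfrc stands alone at 1.54 in iron uptake.

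Glucocorticoid-responsive and immediate early genes were mostly lower in mice 3 and 4, where 48.4% of all genes were higher. Heat shock chaperones had a median near 0. Of 22 tested glucocorticoid-responsive genes 17 were lower (median -0.10, 0 called), with Sesn1 and the metallothionein Mt2 (-0.28, adjusted p = 0.442, limma) among the lowest. Mt2 was called at -0.40 without rosuvastatin 3 and atorvastatin 2 (adjusted p = 0.0294, limma), while the sensitive marker Fkbp5 differed by 0.05 (adjusted p = 0.981, limma). Of 28 immediate early genes 19 were lower (median -0.08), and Ccn2, counted in this list too, was the 1 called. Fos ran from 7.22 to 8.6 in mice 1 and 2 and from 6.78 to 9.05 in mice 3 and 4 on the log2 scale, a difference of -0.14 (adjusted p = 0.975, limma). Heat shock chaperones were higher in 18 of 26 (median 0.02, 0 called). Stip1, which hands clients from Hsp70 to Hsp90, differed by 0.28 (adjusted p = 0.384), the mitochondrial Hspe1 by 0.21 (adjusted p = 0.362) and inducible Hspa1b by 0.10 (adjusted p = 0.979, all limma). Without rosuvastatin 3 and atorvastatin 2, chaperones were higher in 11 of 26, Hspa1b lay at -0.08 and the cochaperone Bag3 was called lower.

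Of 23 genes of the unfolded protein and amino acid response 12 were higher and 11 lower (median 0.01), with the chaperone Hspa5 at 0.35 (adjusted p = 0.408) and the transcription factor Ddit3 at 0.34 (adjusted p = 0.276, both limma). Of 17 oxidative stress genes 7 were higher and 10 lower (median -0.04). The glutathione synthesis subunit Gclm (-0.40, adjusted p = 0.291, limma) and Sqstm1 were lowest. Both were called without rosuvastatin 3 and atorvastatin 2, Gclm at -0.54 (adjusted p = 0.0155, limma), and 14 of the 17 were lower; Gclm was also called with the array median as a covariate (adjusted p = 0.0419, limma). Of 14 hypoxia genes 7 were higher and 7 lower (median -0.009), with the oxygen sensor Egln3 at 0.41 (adjusted p = 0.311, limma), where controls alone gave 1.18, and P4ha1 at 0.22. Over all mice none of these genes was called.

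Among genes of large protein machines, the respiratory chain was higher in mice 3 and 4 in 32 of 35 genes (median 0.07), with Ndufa8 at 0.18 and Ndufb10 at 0.14, and cytosolic ribosomal proteins in 16 of 16 (median 0.11), with Rpl22 and Rpl27 both at 0.15. Another Rpl22 probe set lay at -0.21. After quantile normalization the respiratory chain was higher in 24 of 35 (median 0.02) and the ribosomal proteins in 16 of 16 (median 0.07). The proteasome was higher in 15 of 25 (median 0.03; Psma2 at 0.18 and Psmd14 at 0.12) and splicing factors in 14 of 26 (median 0.004; Srsf3 at 0.14 and Hnrnph1 at 0.11, with another Hnrnph1 probe set at -0.28), where 48.4% of all genes were higher. These were, without rosuvastatin 3 and atorvastatin 2, higher in 12 of 25 (median -0.003) and 12 of 26 (median -0.018). None of these genes was called.

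Of 18 genes of cholesterol synthesis and uptake, the pathway that statins block, 11 were higher and 7 lower (median 0.01, 0 called), with Hsd17b7 at 0.35 (adjusted p = 0.291) and Sqle at 0.35 (adjusted p = 0.414, both limma). Interferon genes were lower in 10 of 16 (median -0.09, 0 called; Igtp at -0.20 and Parp14 at -0.15). Of 10 fetal and stress genes of cardiomyocytes 8 were lower (median -0.03, 0 called). Ankrd1, a stretch-sensitive titin partner, differed by -0.32 (SE 0.069, adjusted p = 0.11, limma), and Nppa by 0.20. Adult sarcomere and calcium handling genes were higher in 17 of 23 (median 0.07, 0 called), with Kcnip2 at -0.18 and Cacna1c at -0.13. After quantile normalization 12 of these were higher and 11 lower (median 0.025). Extracellular matrix genes were higher in 15 of 24 (median 0.05), with Ccn2 the 1 called. Without rosuvastatin 3 and atorvastatin 2, 12 of the 24 matrix genes were higher (median -0.004).

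Marker genes of cell types showed no call on either side. All 12 ventricular cardiomyocyte markers were tested, and their mean log2 level ran from 13.69 to 14.57 in mice 1 and 2 and from 13.72 to 14.62 in mice 3 and 4. Atrial markers (5 of 7 tested) ran from 7.79 to 10.23 and from 7.98 to 10.13, a spread within each side, with Myl7 at -0.14 (SE 0.832). Fibroblast markers (10 of 10) ran from 10.93 to 11.2 and from 10.87 to 11.29, endothelial markers (11 of 11) from 9.88 to 10.17 and from 9.86 to 10.23, smooth muscle and pericyte markers (10 of 11) from 9.98 to 10.6 and from 10.24 to 10.56, and macrophage markers (12 of 12) from 9.63 to 10.36 and from 9.85 to 10.28. Acta2 of smooth muscle differed by 0.40 (adjusted p = 0.438) and Ighm of B cells by -0.23 (adjusted p = 0.475, both limma).

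Most markers of the remaining cell types had no tested probe set assigned to them alone, whether dim, shared with another gene or not found. This held for 10 of 12 lymphocyte, 6 of 9 neutrophil, 8 of 9 erythroid, 7 of 12 adipocyte, 6 of 9 epicardial, 9 of 12 skeletal muscle and 7 of 11 Schwann cell and neuron markers. The tested ones had median differences of -0.24, -0.11, -0.16, 0.04, 0.02, -0.01 and -0.06 in that order. Their part in the differences of Tfrc, the tubulins and the other called genes was not tested.

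Whether the difference by replicate number varied with treatment was tested across all probe sets. By the moderated F test of limma over 4 interaction terms 0 probe sets were called, with a smallest adjusted p of 1, and 207 (0.919%) had an unadjusted p under 0.05. That share is smaller than chance alone gives at a threshold of 0.05. Each group holds 2 mice against 2, so 0 calls do not show that the difference was alike across treatments. The control group had the largest difference in 10 of the 14 called probe sets, a share that was not counted over all tested probe sets. The control values also helped to make the calls, and without the control group 0 were called, so the count describes these probe sets only. Among the 10 were Tfrc (2.39 in controls), Tuba8 (1.22) and Alas1 (1.05), while pitavastatin gave 0.75, 0.50 and 0.33. With 2 mice against 2 in a group, these values have no test of their own beyond the interaction, which had unadjusted p = 0.0241, 0.491 and 0.14 for these 3 probe sets (limma F test).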

How the data were processed

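Per the labels, cDNA from each left ventricle was amplified with the NuGEN Ovation system, and each mouse was hybridised to its own array. The deposited values are the signal intensity of each probe set, not log-transformed, which the submitters' processing notes credit to MAS5 with no version. The 64 control probe sets were left out, 16 was added, and log2 taken. Of 45037 probe sets, the brighter 50% by mean signal over all 20 arrays (88.3 or above) were tested; 18935 had 1 symbol, for 11201 genes. limma 3.58.1 in R 4.3.3 fitted replicate set and treatment group (14 residual and 4.08 prior degrees of freedom, trend in the prior), with Benjamini-Hochberg adjustment and calls at 0.05. The procedure was tested on simulated data. Fold changes are on the log2(value + 16) scale, which understates those of dim genes. Array measures were compared by exact permutation within groups (7776 arrangements, smallest p 0.000257).

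The comparison, the gene lists and the rule for naming genes were chosen with earlier results of these data known, and the tubulin list after these values were seen. With fewer than 20 calls the rule named all called probe sets with 1 symbol, the 10 highest and 10 lowest values among the 50 smallest p, the 2 members with the smallest p of each list with no call, and Tfrc, Per1, Per2, Dbp, Arntl, Nr1d1, Fkbp5, Pdk4, Txnip, Hspa1b and Fos. Other list members are named as examples chosen after their values were seen. A list gene is represented by its brightest probe set. Gene names come from the platform annotation updated through RefSeq. Alternatives were quantile normalization, median centring, other pseudocounts and filters, no trend, array weights, 1 probe set per gene, the median signal as a covariate, the replicate number as a block, and leaving out arrays, numbers and groups.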

Additional observations from a re-analysis of the deposited data

Results flagged for a closer look

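Within each set of 10 mice, the highest and lowest mouse was set against the others by Dixon's rule, for the array median and for each named probe set, in 186 sets. In 8 of them a mouse stood apart, where chance flags about 1 in 20 sets. The log2 median signal of atorvastatin 2 was 7.17, beside 5.98 to 6.61 in the other mice numbered 1 or 2, and that of rosuvastatin 3 was 5.38, beside 6.27 to 6.90. Rpa3, a subunit of replication protein A, was at 9.55 in atorvastatin 2, below the 9.77 to 10 of the others. In rosuvastatin 3 the chaperones Hspa1b (10.12, beside 8.06 to 9.14) and Stip1 (10.02, beside 9.21 to 9.55) were both above all other mice numbered 3 or 4. In atorvastatin 3, Tmx2 was at 12.92, below 13.21 to 13.47, and Cp at 12.08, above 11.24 to 11.60. Ankrd1 was at 14.14 in atorvastatin 4, above 13.52 to 13.84. These are log2(signal + 16) levels of single mice.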

How the results depend on the processing

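The 14 calls became 78 after quantile normalization, 2 with each array centred on its median, 4 with no filter, 25 with the brightest 30%, 1 with no trend in the prior, 302 with array weights (29.8% of them higher) and 176 with the array median as a covariate (39.8% higher). They became 172 without rosuvastatin 3 and atorvastatin 2, and 242 with quantile normalization too, an alternative chosen after seeing the data. With no treatment group in the model 0 were called (1785 at an unadjusted p under 0.05). Without the control group 0 were called, without pitavastatin 6, without pravastatin 0, without rosuvastatin 1 and without atorvastatin 10 (2 higher and 8 lower, 2 of them among the 14). Leaving out 1 array or 1 whole replicate number at a time gave 0 (without number 1; number 4 likewise) to 104 (without number 2). Same-numbered arrays of different groups correlated at a median of 0.08, from -0.55 to 0.70 (18 of 40 pairs over 0.1). Pairs of the same side with another number had a median of -0.03, and pairs across the sides -0.04. Of 20 arrays, 7 matched their own number best, and the consensus correlation within numbers was 0.12. With the number as a random replicate block 0 were called (943 at an unadjusted p under 0.05, smallest adjusted p 0.143, limma), and with the numbers as fixed effects 13. The cause of these shifts was not tested.

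The difference in array median turned to 0.17 without both arrays and ran from -0.082 to 0.086 with 1 array left out. Fkbp5 reversed with array weights (-0.013) and with quantile normalization without both arrays (-0.11), and ran from -0.03 to 0.12 with arrays or numbers left out. Hspa1b reversed with array weights (-0.073), without both arrays (-0.081), with quantile normalization too (-0.091) and without the pitavastatin group (-0.057), and ran from -0.028 to 0.22. Pdk4 was 0.003 without both arrays and ran from -0.31 to 0.036. Fos was 0.014 without the atorvastatin group and ran from -0.38 to 0.088. Per1 ran from -0.49 to 0.20 and Mlxip from -0.001 to 0.27. No called gene reversed under the 44 or 45 settings it was run with, and 0 interactions were called (limma F test) under those run for it. Signal over background limits dim genes: Tmprss13 and Per1 lay near the filter in many mice.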
